A study of Mus musculus with 6 samples.

Results

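The immediate early genes examined were Fos, Fosb, Junb, Arc, Egr1, Egr2, Npas4, Nr4a1, Dusp1 and Ier2, 10 gene symbols taken by name from the 31276 in the deposited count table, and all 10 passed the filter on low counts that left 16592 genes to test. They were read in polyadenylated RNA from mouse brain of strain C57BL/6 at postnatal day 14, in 3 samples labelled PRMT5 olig2cre KO (KO) and 3 labelled wild-type (WT). In the KO, Cre recombinase under control of Olig2 targets Prmt5, an arginine methyltransferase gene, so the targeting concerns cells that have expressed Olig2, chiefly the oligodendrocyte lineage, while the RNA came from all cells of the dissected brain. Whether the WT mice carried Cre, and whether each sample is its own animal, is not given in the sources used here. The p-values therefore reflect only how far these samples scatter, part of which may be technical. Xist, transcribed in females, differed within both groups, as given below. Prmt5 itself stood at 68.2, 68.3 and 81.5 CPM (counts scaled to library size) in KO replicates 1 to 3, against 90.7, 90.3 and 91.7 CPM in WT replicates 1 to 3, with no overlap between groups. Its log2 fold change was -0.32 (SE 0.0950), with a Benjamini-Hochberg adjusted p of 0.232 by the quasi-likelihood test of edgeR, the test used throughout. With the replicate number as a block Prmt5 was called, at -0.33 (SE 0.0859, edgeR adjusted p = 0.0379).

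Immediate early genes are transcribed within minutes of a stimulus from promoters already held ready, without new protein synthesis. In neurons the trigger is calcium entering through synaptic receptors and channels, which acts through kinases on the factors CREB, SRF with its ELK partners, and MEF2. Most of the products are transcription factors that set off later genes, and others act at the synapse or switch the kinase signal off. Levels in brain therefore change with sensory experience, stress and handling in the minutes before the tissue is taken.

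In GENCODE M21 on mm10, Fos lies at chr12:85473890-85477273 and Egr2 at chr10:67535475-67542188, Egr1 at chr18:34859823-34864984 and Nr4a1 at chr15:101254269-101274795, all on the plus strand. On the minus strand Fosb lies at chr7:19302696-19310051, Npas4 at chr19:4984355-4990316 and Arc at chr15:74669083-74672570, and both Ier2 (chr8:84661331-84662852) and Junb (chr8:84974484-84978718) are on chromosome 8. Dusp1 (chr17:26505590-26562128, minus strand) carries a long annotated transcript that reaches an exon of Ergic1 on the opposite strand by 11 bases. Counts were taken per gene and not split by exon, intron or UTR.

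The libraries differed in cerebellar transcripts and, by Xist, in sex before any genotype is considered. Why the cerebellar transcripts differed was not tested. Gabra6, a GABA receptor subunit gene typical of cerebellar granule cells, had 80.0, 0 and 22.1 CPM in KO replicates 1 to 3, against 63.8, 0 and 0 CPM in WT replicates 1 to 3. The 8 granule cell markers summed to 116.2 to 677.7 CPM in KO and to 79.0 to 609.2 CPM in WT, and all 8 were detected in the table. Xist, transcribed in females, was at 508.7 to 633.4 CPM in KO replicates 1 and 2 and WT replicate 2 and at 0.24 to 0.25 CPM in the others. Total counts ran from 15089140 to 16872925 per library, and a single value of an immediate early gene rested on 40 to 4395 counts.

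Promoter sequence is shown for 5 members across the roles, because these genes share regulatory elements that respond to calcium and cyclic AMP. The windows lie upstream of RefSeq starts on GRCm38.p6 (mm10), are 250 bases long where not cut short at an annotated exon, and are written 5′ to 3′ in the direction of transcription. Capitals mark the cAMP response element TGACGTCA or its core TGACG, the CArG box that SRF binds, and the TATA box TATAAA, on either strand.
Fos (chr12:85473640-85473889, plus strand): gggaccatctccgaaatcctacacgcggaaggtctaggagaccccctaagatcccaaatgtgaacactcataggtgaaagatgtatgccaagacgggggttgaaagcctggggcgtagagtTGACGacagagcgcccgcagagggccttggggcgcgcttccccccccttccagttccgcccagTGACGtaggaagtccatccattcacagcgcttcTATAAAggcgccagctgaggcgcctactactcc
Junb (chr8:84978749-84978998, minus strand): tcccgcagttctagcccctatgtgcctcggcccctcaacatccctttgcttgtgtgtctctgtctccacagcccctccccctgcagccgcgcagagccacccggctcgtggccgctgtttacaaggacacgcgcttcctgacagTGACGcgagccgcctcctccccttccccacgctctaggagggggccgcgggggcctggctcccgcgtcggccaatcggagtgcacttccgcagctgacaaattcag
Egr2 (chr10:67537619-67537868, plus strand): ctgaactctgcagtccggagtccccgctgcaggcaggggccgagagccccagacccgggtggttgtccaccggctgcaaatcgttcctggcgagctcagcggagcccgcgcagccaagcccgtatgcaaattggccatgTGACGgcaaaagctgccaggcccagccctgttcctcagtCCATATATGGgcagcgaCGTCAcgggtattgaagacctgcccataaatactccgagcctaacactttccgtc
Nr4a1 (chr15:101266596-101266845, plus strand): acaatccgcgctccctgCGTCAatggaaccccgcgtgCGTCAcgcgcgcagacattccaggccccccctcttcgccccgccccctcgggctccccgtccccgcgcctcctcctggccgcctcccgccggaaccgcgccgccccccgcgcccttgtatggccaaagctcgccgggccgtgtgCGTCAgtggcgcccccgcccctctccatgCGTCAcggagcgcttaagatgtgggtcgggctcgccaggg
Dusp1 (chr17:26508520-26508722, minus strand): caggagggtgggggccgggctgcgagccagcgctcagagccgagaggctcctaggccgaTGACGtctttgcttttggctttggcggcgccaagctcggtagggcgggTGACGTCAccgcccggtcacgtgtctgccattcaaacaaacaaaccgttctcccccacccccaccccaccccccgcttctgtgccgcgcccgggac
RefSeq windows were searched for 7 of the genes, 11 windows in all, of which 5 were of Egr2 starts, 3 of these overlapping. Arc and Ier2 had no window, and Egr1 was left out of the search, so the matches do not cover it. The core TGACG was found in 9 of the 11 windows and in at least 1 window of all 7 genes, against 17.7% of 32817 windows of all genes; the full element TGACGTCA, which contains the core, was found in Dusp1 alone, against 1.55%. A CArG box stood in 4 Egr2 windows (1.47% of all windows), a TATA box in the Fos window (12.4%), and the EGR site GCGNGGGCG in the Fosb and Nr4a1 windows (4.7%). The 3 overlapping Egr2 windows held the same CArG box, so the 4 are windows and not separate boxes. Sequence further upstream than the windows was not searched. The AP-1 site TGANTCA was in none of the 11 (6.75%). These matches describe letters in the windows and do not show binding.

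None of the 10 genes was called between KO and WT, while the values of 9 of them lay below WT and that of Ier2 was level. The median log2 fold change, KO over WT, was -0.24 over the 10 genes, against 0.01 over all genes tested. By edgeR 0 of 10 passed an adjusted p of 0.05, against 1.20% of all genes tested (0.958% lower, 0.241% higher); 1 of 10, Dusp1, had an unadjusted p under 0.05, against 9.67% of all genes. DESeq2 also called 0 of 10, against 1.99% of the genes it gave an adjusted p, and likewise 1 of 10 had an unadjusted p under 0.05. The KO and WT ranges overlapped for all 10, whereas they did not overlap for 16.0% of genes tested. A fold change below 0 was found for 10 of 10, against 47.7% of genes tested. The sign of Ier2, however, turned positive with upper quartile scaling and with library totals. The members also moved together across libraries, as given below, so these 10 signs are not separate observations.

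The AP-1 genes encode leucine zipper proteins that pair to bind DNA. Fos, whose protein needs a JUN partner, had 16.8, 23.9 and 22.0 CPM in KO replicates 1 to 3, against 18.2, 32.9 and 25.3 CPM in WT replicates 1 to 3. The groups overlapped, with the lowest value in KO replicate 1 and the highest in WT replicate 2. The log2 fold change was -0.28 (SE 0.207, 95% interval from -0.74 to 0.17), and -0.06 without WT replicate 2. Fosb, which also yields a stable truncated protein that builds up with repeated activity, had 2.92, 5.73 and 6.22 CPM in KO, against 2.50, 6.42 and 8.18 CPM in WT. Replicate 1 was lowest in both groups, by more than the groups differed (log2 fold change -0.20, SE 0.396), and the value turned to 0.07 without KO replicate 1 and 0.15 without WT replicate 3. Junb, a JUN family member that restrains JUN activity at many targets, had 43.7, 63.8 and 56.3 CPM in KO, against 52.6, 76.4 and 58.8 CPM in WT, and a log2 fold change of -0.20 (SE 0.160), or -0.03 without WT replicate 2. Junb overlaps exons of Prdx2 on the opposite strand by 173 bases, and the strand setting of the counting is not given in the sources used here, so part of its reads may belong to Prdx2.

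The EGR genes encode zinc finger factors. Egr1, the most abundant member and a standard marker of recent neuronal activity, had 162.5, 226.9 and 193.7 CPM in KO, against 158.7, 296.8 and 253.0 CPM in WT. The lowest of the 6 values was in WT replicate 1, so the groups overlapped, and the log2 fold change was -0.28 (SE 0.199, 95% interval from -0.72 to 0.16), with -0.09 without WT replicate 2 and -0.50 without WT replicate 1. Egr2, needed for hindbrain patterning and for myelination by Schwann cells, had 2.67, 6.17 and 5.08 CPM in KO, against 4.49, 8.58 and 7.39 CPM in WT. KO was below WT in each same-numbered pair, and the log2 fold change was -0.56 (SE 0.319), or -0.28 without KO replicate 1.

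Npas4 and Nr4a1 encode transcription factors of other families. Npas4, a PAS-domain factor gene specific to neurons and induced by calcium entry, had 13.8, 38.5 and 15.6 CPM in KO, against 21.0, 36.7 and 18.6 CPM in WT. Replicate 2 stood well above the others in both groups, and the KO coefficient of variation, 60.6%, was the highest of the members. The log2 fold change was -0.17 (SE 0.364), and 0.19 without WT replicate 2, 0.09 without KO replicate 1 and 0.04 without KO replicate 3. Nr4a1, an orphan nuclear receptor gene also known as Nur77, had 42.2, 54.5 and 48.0 CPM in KO, against 41.6, 77.7 and 45.8 CPM in WT. WT replicate 2 alone stood above all KO samples, and the log2 fold change was -0.19 (SE 0.205), or 0.14 without that library.

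Arc, Dusp1 and Ier2 act outside or beside these factors. Arc, whose protein drives removal of AMPA receptors at synapses and whose mRNA travels into dendrites, had 49.3, 91.1 and 55.1 CPM in KO, against 70.0, 146 and 65.9 CPM in WT. KO was lower in each same-numbered pair while the pairs themselves differed widely. The log2 fold change was -0.53 (SE 0.299, adjusted p = 0.604 in edgeR's test). With the replicate number as a block Arc was called, at -0.49 (SE 0.0919, edgeR Benjamini-Hochberg adjusted p = 0.00296), 1 of 10 members against 3.41% of all genes in that fit (2.38% lower). Without WT replicate 2, in the fit with no block, the Arc value was -0.07 with an adjusted p of 0.973 by edgeR.

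Dusp1, a phosphatase that switches off MAP kinases and so limits the signal that induced it, had 14.9, 20.7 and 19.7 CPM in KO, against 22.2, 35.1 and 20.6 CPM in WT. The groups overlapped only through KO replicate 2 and WT replicate 3, which differed by little. The log2 fold change was -0.49 (SE 0.208, 95% interval from -0.95 to -0.03), with an adjusted p of 0.467 by edgeR, and 0.0720 with the block. Without WT replicate 2 it was -0.22 (SE 0.173, edgeR adjusted p = 0.864). Ier2, a small nuclear protein gene of the serum response, had 6.44, 7.62 and 9.27 CPM in KO, against 8.49, 9.86 and 5.05 CPM in WT. The value for Ier2 was -0.002 (SE 0.25), which leaves a 95% interval from -0.55 to 0.55, so a moderate difference in either direction was not detectable. The 95% interval included 0 for 9 of the 10 genes, Dusp1 being the other.

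**Figure D1:**
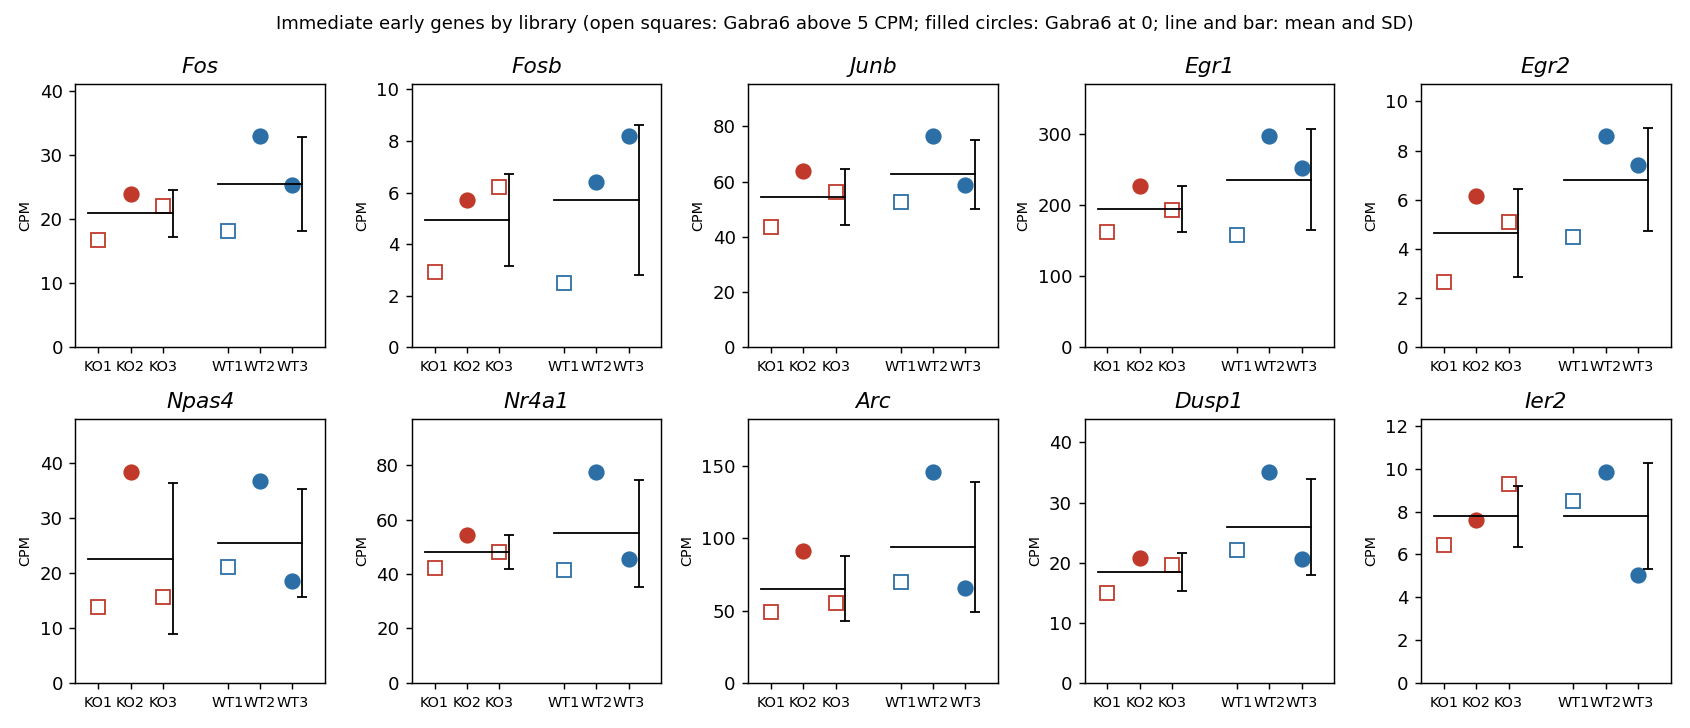
CPM (vertical axes, from 0) of the 10 immediate early genes in KO replicates 1 to 3 (red, left) and WT replicates 1 to 3 (blue, right), with the group mean and SD (n = 3). Open squares are libraries with Gabra6 above 5 CPM and filled circles those with Gabra6 at 0; WT replicate 2 was the highest library for 8 genes and KO replicate 1 the lowest for 6.

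**Figure D2:**
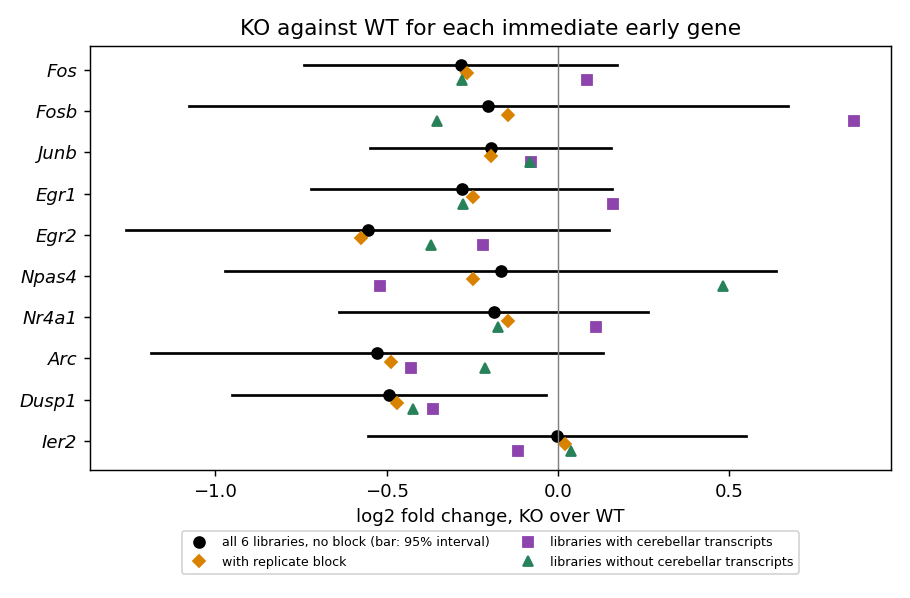
Log2 fold change of KO over WT (horizontal axis) for each gene, as black circles with 95% intervals for all 6 libraries, and as coloured symbols with the replicate block and within the libraries that have or lack cerebellar transcripts. The intervals of 9 genes cross 0, and for Npas4 the values within the 2 kinds of library lie on opposite sides of 0.

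The members differed more between libraries of one genotype than most genes did. Within KO the coefficient of variation of the 10 genes had a median of 18.4% (12.8% to 60.6%), against a median of 11.9% over 14438 genes averaging 2 CPM or more. Within WT it had a median of 31.3% (19.7% to 51.0%), against 8.71%. The summed level of the 10 genes was 355.2, 538.9 and 431.0 CPM in KO replicates 1 to 3, against 399.8, 726.4 and 508.6 CPM in WT replicates 1 to 3. The highest sum was 2.05 times the lowest.

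The same libraries were high or low for nearly all members. WT replicate 2 was the highest of the 6 for 8 genes; the exceptions were Fosb, highest in WT replicate 3, and Npas4, highest in KO replicate 2. KO replicate 1 was the lowest for 6 genes and the second lowest for the other 4. Over the 6 libraries, 44 of the 45 pairs of members had a positive Pearson r of log2 CPM, with a median of 0.77. Fos and Egr1 were the closest pair (r = 0.975), and Arc correlated with Dusp1 at 0.922 and with Npas4 at 0.911. Ier2 stood apart, with r from -0.134 to 0.553 to the other members, and without it the lowest r was 0.318, between Fosb and Npas4. After group means were taken out the median was 0.76, again with 44 positive pairs, so the shared pattern lay within genotypes. These values are descriptions over 6 libraries that differed in cerebellar transcripts. Within a library all members share its tissue content and depth.

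**Figure D3:**
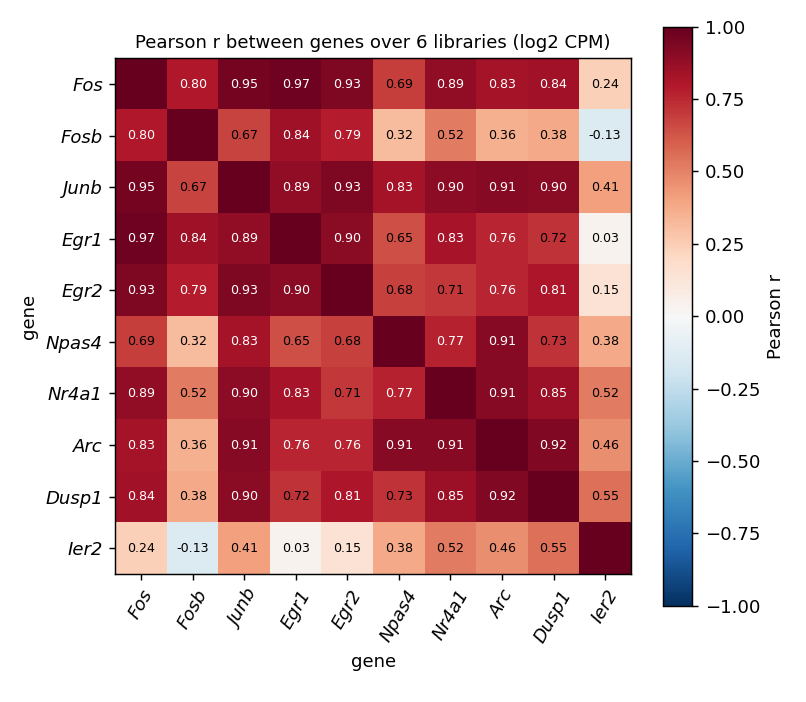
Pearson r of log2 CPM over the 6 libraries for each pair of immediate early genes (both axes; colour and number give r). All pairs without Ier2 are positive, from 0.318 to 0.975, and the row of Ier2 is the palest.

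The genes whose pattern was closest to the mean standardised level of the members, among 12467 other genes averaging 5 CPM or more, were Jmjd7-pla2g4b (r = 0.99), Fam122b (0.976), Abcg4 (0.974), Sde2 (0.970), St6galnac5 (0.969) and Grk6 (0.967), all over 6 libraries. With group means taken out their r was 0.988, 0.996, 0.971, 0.965, 0.977 and 0.962 in the same order. Their spread over libraries differed. Abcg4 varied little, with 61.9, 68.6 and 65.3 CPM in KO, against 65.8, 75.2 and 65.9 CPM in WT. Fam122b varied more, with 3.77, 5.10 and 4.57 CPM in KO, against 4.62, 7.16 and 5.17 CPM in WT. Of the further rapid response genes, Arl4d, a small GTPase gene, came closest (r = 0.958), with 9.72, 15.1 and 11.8 CPM in KO, against 10.4, 16.9 and 11.8 CPM in WT. The 29 further rapid response genes abundant enough for this comparison had a median r of 0.51, against 0.02 over all genes compared.

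Libraries with and without cerebellar transcripts were compared in a test added after seeing the data, with genotype in the model. By edgeR 0 of 10 members passed the adjusted threshold, against 0.729% of all genes (0.108% lower). The coefficient for libraries with these transcripts was negative for 9 of 10, and 8 of 10 had an unadjusted p under 0.05, against 8.53% of all genes. The members moved together across libraries, with 44 of 45 pairs positive, so counts over them are not separate observations. Egr1 came nearest, at -0.57 on the log2 scale (SE 0.133, adjusted p = 0.0973 by edgeR), with 158.7 to 193.7 CPM in libraries with these transcripts, against 226.9 to 296.8 CPM in those without. Fos, Junb and Egr2 likewise showed no overlap between the 2 kinds of library, 4 of 10 genes, against 12.4% of all genes tested. Npas4 had a coefficient of -0.89 (SE 0.251) and Arc of -0.70 (SE 0.224), and Ier2 was the exception at 0.12 (SE 0.259).

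The genotype values depended on how these transcripts were handled. With the cerebellar term alone the median over the 10 genes was -0.07, with 8 negative, and Egr1 stood at -0.06. With the term and the replicate block together the median was -0.28, with 10 negative, and edgeR called 2 of 10, against 3.22% of all genes. These were Arc (-0.60, SE 0.0975, adjusted p = 1.87e-06 by edgeR) and Dusp1 (-0.67, SE 0.147, adjusted p = 0.000863 by edgeR). That fit has 1 residual degree of freedom, and since only replicate 3 differs in these transcripts between KO and WT, its genotype value rests on replicates 1 and 2. Within the libraries with cerebellar transcripts (KO replicates 1 and 3 against WT replicate 1) the median was -0.10, with 6 negative, and within those without (KO replicate 2 against WT replicates 2 and 3) it was -0.25, with 8 negative. Each has a group of 1 sample, whose scatter is taken to equal that of the other group. Npas4 was at -0.52 in the first and at 0.48 in the second, where edgeR called it higher (adjusted p = 0.0148, against 3.26% of genes called higher and 4.11% called lower there), on the single KO sample of 38.5 CPM against 36.7 and 18.6 CPM in WT. A test of the difference between these 2 values gave an edgeR adjusted p of 0.9999 for Npas4 (-0.99, SE 0.474, unadjusted p = 0.0662), and edgeR called the interaction for 0 members and for 0 of all genes (0%), with 0 members and 411 genes at an unadjusted p under 0.05.

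The sum of forebrain excitatory neuron markers, cells rich in these transcripts, tended to rise with the members' sum (r = 0.859 over 6 libraries). WT replicates 2 and 3 were close in the marker sum but had 726.4 and 508.6 CPM of members. The 8 markers, all detected, summed to 4192, 4925 and 4473 CPM in KO replicates 1 to 3, against 3942, 5679 and 5528 CPM in WT replicates 1 to 3. Per 1000 CPM of these markers the members summed to 84.7, 109 and 96.4 CPM in KO, against 101, 128 and 92.0 CPM in WT, so WT replicate 2 and KO replicate 2 stayed the highest of their groups. Of the markers 0 of 8 were called by edgeR, 2 had an unadjusted p under 0.05 and 2 were called by DESeq2 and with the block, among them Cux2, a factor gene of upper layer cortical neurons. Cux2 had 45.9, 36.45 and 41.1 CPM in KO, against 53.7, 55.5 and 57.95 CPM in WT. Within KO it was highest in replicate 1, where the members' sum was lowest, so single markers need not follow the sum. In bulk RNA fewer cells of a type and less RNA per cell cannot be told apart, and the part of dissection or neuron content in the members' values was not tested beyond these figures. The 8 pan-neuronal markers summed to 8470 to 8862 CPM in KO, against 8184 to 8964 CPM in WT.

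**Figure D4:**
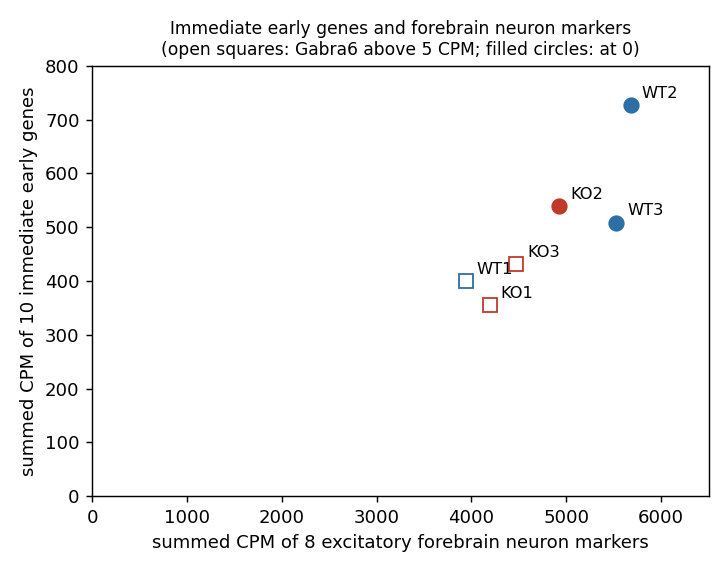
Summed CPM of the 10 immediate early genes (vertical) against summed CPM of 8 excitatory forebrain neuron markers (horizontal) in KO (red) and WT (blue) libraries, both axes from 0. The 3 libraries with Gabra6 above 5 CPM (open squares) lie at the lower left, and WT replicate 2, at 726.4 CPM, is the highest.

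Levels of different genes were compared per length, as CPM per kilobase of the principal transcript (RPKM). Egr1 led at 43.4 ± 7.18 RPKM in KO and 52.7 ± 15.7 RPKM in WT (SD, n = 3 each), followed by Junb at 30.2 ± 5.58 RPKM in KO and 34.6 ± 6.80 RPKM in WT, then Arc at 21.3 ± 7.40 RPKM in KO and 30.8 ± 14.8 RPKM in WT. Nr4a1, Dusp1, Fos, Npas4 and Ier2 came next in WT order, and Egr2 and Fosb were lowest, Fosb at 1.31 ± 0.471 RPKM in KO and 1.51 ± 0.769 RPKM in WT. Neighbours in the WT order overlapped in their ranges, except that Ier2 (3.32 to 6.48 RPKM) lay above Egr2 (1.52 to 2.89 RPKM). With the length of all annotated exons in place of the principal transcript, Arc moved above Junb and Fos above Dusp1.

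Of 39 tested genes on a list of further rapid response genes, edgeR called 0, DESeq2 called 0, and 4 of 39 had an unadjusted p under 0.05, against 9.67% of all genes. Their values were 19 positive and 20 negative, with a median of -0.03. With the block 2 of 39 were called lower, against 2.38% of all genes, Jun, the main partner of FOS, and Nr4a3, a relative of Nr4a1. Jun had 39.0, 46.2 and 53.0 CPM in KO, against 59.0, 61.2 and 62.3 CPM in WT, with all KO samples below all WT samples. Its log2 fold change was -0.40 (SE 0.115, adjusted p = 0.212 by edgeR, and 0.0175 with the block), and it overlaps the antisense Junos. Nr4a3 had 12.03, 7.62 and 5.21 CPM in KO, against 12.2, 15.1 and 13.8 CPM in WT, a log2 fold change of -0.72 (SE 0.255, adjusted p = 0.356 by edgeR, and 0.0394 with the block). The other 2 at an unadjusted p under 0.05 were Plk3, a stress-responsive kinase gene (-0.32, SE 0.123), and Nr4a2 (-0.40, SE 0.166). Egr3, a close relative of Egr1, had 69.5, 69.1 and 76.2 CPM in KO, against 58.2, 89.8 and 109.8 CPM in WT, and was chosen after its values were seen.

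For the lists that follow, the shares over all genes were again 1.20% called by edgeR, 1.99% by DESeq2, 3.41% with the block and 9.67% at an unadjusted p under 0.05. A fold change below 0 was found for 47.7% of genes tested. Genes of a list may move together across libraries, so signs within a list may not be separate observations. Slower activity-regulated and effector genes likewise held 0 called of 20 by edgeR, with 3 at an unadjusted p under 0.05 and a median of -0.07; DESeq2 and the block each called 1, Cdkn1a, a cell cycle inhibitor gene induced by p53 (0.50, SE 0.112, adjusted p = 0.0777 by edgeR, 0.0233 by DESeq2 and 0.0153 with the block). Of 34 upstream kinases, channels and factors 26 had negative values, with a median of -0.08; edgeR and DESeq2 called 0, 2 had an unadjusted p under 0.05, and the block called 2 lower, Mef2d (-0.35, SE 0.109, edgeR adjusted p = 0.272, and 0.0493 with the block) and Mef2a (-0.43, SE 0.199, edgeR adjusted p = 0.522, and 0.0465 with the block), both MEF2 factor genes. Of 13 partners and repressors of EGR and AP-1 proteins, 0 were called by edgeR, DESeq2 or the block and 0 had an unadjusted p under 0.05 (median -0.08), with Rxrg, a retinoid receptor gene, the nearest (0.36, SE 0.187).

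Lists that respond to stress and handling were read beside these. Of 14 glucocorticoid response genes edgeR called 0 (median -0.02), 2 had an unadjusted p under 0.05, and DESeq2 and the block called 1, Sgk1, a kinase gene that oligodendrocytes also express (-0.44, SE 0.0972, adjusted p = 0.0692 by edgeR, 0.0183 by DESeq2 and 0.0143 with the block). Of 10 heat shock genes 0 were called by edgeR, DESeq2 or the block and 0 had an unadjusted p under 0.05 (median 0.11); Hspa1a had 2.73, 6.36 and 4.70 CPM in KO, against 2.996, 3.65 and 3.31 CPM in WT. Of 12 hypoxia response genes edgeR and DESeq2 called 0, 1 had an unadjusted p under 0.05 and the block called 1, Ndrg1, a gene with a role in myelin (-0.46, SE 0.141, adjusted p = 0.254 by edgeR and 0.0251 with the block; median -0.01). By contrast, all 8 of 8 oligodendrocyte and myelin markers fell in KO by edgeR, summing to 905.5 to 1909 CPM, against 7467 to 10130 CPM in WT.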

How the data were processed

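The authors deposited raw counts (whole numbers) and a normalized signal for 31276 symbols in 6 libraries; the signal equalled the deposited count divided by 1 size factor per library (largest relative deviation 5.1e-15). Per the labels' protocols, Trizol RNA went into Illumina mRNA TruSeq libraries read as 150 bp paired ends. Per the submitters' processing notes, the tools included STAR 2.3.0e, featureCounts 1.5.0, Trimmomatic 0.32, FastQC 0.11.2, DESeq2, and the build mm10; the strand and multi-mapping settings are not given in the sources used here.

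Counts were tested in R 4.3.3 with edgeR 4.0.16 (glmQLFit and glmQLFTest, filterByExpr, TMM factors from 0.973 to 1.04, 4 residual degrees of freedom), adjusting by Benjamini-Hochberg over 16592 genes. Log2 fold changes are KO over WT, and intervals use the test's t distribution. CPM and RPKM were computed here, and log2 CPM used a prior count of 2. Within groups, the chi-square between 2 libraries, per gene, was 6.75 to 27.41, so no library was taken as a duplicate. Limma 3.58.1 and DESeq2 1.42.0 served in the alternatives, and the procedure was checked on simulated counts. Motifs were searched on both strands.

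The members and gene lists were chosen with earlier results of these data known. Named genes are the 10 members, the 4 further rapid response genes of smallest p, the called genes or else the gene of smallest p in each other list, and the 6 genes of closest pattern; Mef2a, Cux2, Arl4d, Egr3 and Dusp5 were named after their values were seen, and some listed genes are not reported here. A term for cerebellar transcripts was a listed alternative; testing its own coefficient and its interaction with genotype was added after seeing the data.

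Replicate numbers 1 to 3 recur in both groups, with no label saying what they mark. Deviations from group means correlated at 0.351, 0.334 and 0.177 between same-numbered samples. Without the genes that followed cerebellar transcripts the values were 0.224, 0.228 and 0.22. Different-numbered samples gave -0.381 to 0.1 over all genes, the only set for which they are given. The same-numbered values lay above 0.1, the highest different-numbered value. Deviations cancel out within each group, so high same-numbered values lower the others, and this comparison cannot decide on pairing. The numbers were read as possible pairs, and the block served as an alternative to the reported fit, which has no block. That pairing came from the same counts that the block then tests, so calls with the block depend on it. Whether the numbers mark true pairs was not tested. The block leaves 2 residual degrees of freedom.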

Additional observations from a re-analysis of the deposited data

How the results depend on the processing

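Across 23 alternatives to the reported fit, each immediate early gene gave 1 value per alternative, 230 in all. Of these, 5 passed an adjusted p of 0.05 and 23 had a sign opposite to the reported one; Junb, Arc, Egr2 and Dusp1 stayed negative in all 23. The count of members called, 0 as reported, was 1 with the replicate block (Arc), 1 with length-adjusted offsets and the block (Arc), 2 with the cerebellar term and the block (Arc and Dusp1, with an edgeR adjusted p of 0.000863 for Dusp1), and 1 within libraries without cerebellar transcripts, where the value of Npas4 turned to 0.48; it was 0 without each library in turn. For further rapid response genes the count of 0 was 2 with the block, 1 with the cerebellar term and block, 4 within libraries without cerebellar transcripts, 1 with length offsets and block, and 0 to 1 without each library in turn, Nr4a3 being called without KO replicate 1. Over all genes, 199 as reported, the count was 315 with DESeq2, 566 with the block, 535 with the cerebellar term and block, 129 with a term for sex, 1254 within libraries without cerebellar transcripts, 446 with length offsets and block, and 100 to 305 without each library in turn. The causes were not tested. As shares of all genes, these counts were 1.20% as reported, 1.99% with DESeq2, 3.41% with the block and 3.22% with the cerebellar term and block. Length offsets with the block left 14604 genes to test, and libraries without cerebellar transcripts left 17011. In those libraries KO is replicate 2 alone, so the calls there, for either list, cannot show an excess over all genes. The share of all genes called lower there is given above. Without WT replicate 2 the median of the 10 genes was -0.06, with 7 negative, and without KO replicate 1 it was -0.12, with 7 negative. A group of 1 sample is taken to scatter as the other group does. Depth limits Fosb most, with 508 counts over all 6 libraries, and 3 samples a group limit all.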

Other observations

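Dusp5, which encodes a nuclear phosphatase of ERK and is also an activity-induced gene, ran against the members. Its Pearson r with their mean standardised level was -0.816 over the 6 libraries, rank 12158 of 12467 genes, and it was chosen after its values were seen. Dusp5 had 10.8, 4.59 and 7.11 CPM in KO replicates 1 to 3, against 10.2, 4.19 and 3.97 CPM in WT replicates 1 to 3. It was highest in the 3 libraries with cerebellar transcripts, where 4 of the 10 immediate early genes (Fos, Junb, Egr1 and Egr2) were below all other libraries, and the KO and WT groups overlapped (log2 fold change 0.29, SE 0.386, edgeR adjusted p = 0.847).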
